A study of Mus musculus with 2 samples.

Results

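Long-read sequencing of adrenal RNA gave 693 exon combinations that GENCODE M21 does not list, of which 660 were built on its splice sites alone. They are multi-exon transcript models of the class NIC, which the TALON program is meant to give to a chain of known splice sites in an order that no annotated transcript has. The members were chosen by measured values: the class had to be NIC in both libraries, the chromosome, strand and full chain of introns had to match between them, and each library had to hold at least 5 reads. Of 132009 multi-exon chains seen in either library, 35364 were seen in both, 5765 were NIC in both, and 693 in 552 genes met the read minimum. By the same minimum, 8749 chains were Known (annotated) in both libraries and 254 were NNC (with an unannotated splice site).

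The study holds 1 group with 2 libraries, biological replicates 1 and 2, from adrenal glands of female B6CASTF1/J mice aged 14 days, with no treatment, control or second genotype. These are F1 hybrids of a C57BL/6 and a CAST parent. By their tissue records, replicate 1 came from 3 females and replicate 2 from a single numbered one, although both library records name 3 females, so a pool and 1 animal may stand side by side, and both carry the same donor entry. Replicate 1 held 1143111 reads and replicate 2 held 991731, of which 1065570 and 946553 fell in annotated genes. CPM, the read count scaled to the same total in both libraries, is over these gene reads.

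Replicate 2 stood apart. The 15 hepatocyte markers summed to 757 CPM in replicate 1 and 84680 CPM in replicate 2, and all 15 were higher there, with 2 of them at 0 in replicate 1. The 9 skeletal muscle markers summed to 78.8 and 2674 CPM. The 7 cortex markers summed to 54180 CPM in replicate 1 and 24213 CPM in replicate 2, and the 6 chromaffin markers to 11584 and 4456 CPM, with no defining marker of either at 0. In bulk tissue, fewer cells of a type and less RNA per cell cannot be told apart. No test between the libraries speaks of a condition: each compares these 2 libraries, and its p covers counting error only. No member lay in a hepatocyte or muscle marker gene, and 20 lay in cortex marker genes (Cyp11a1, Cyp11b1 and Cyp21a1). A member needed reads in each library, and replicate 1 held 807 reads over the hepatocyte markers and 84 over the muscle markers. Over the cortex markers it held 57732, so nothing on the source of the members is read from these counts.

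As background, the exons of a pre-mRNA are joined at a donor site at the start of each intron and an acceptor site at its end. One gene can yield several mRNAs by leaving out an exon, keeping an intron, choosing between neighbouring donors or acceptors, or starting at another promoter with its own first exon. A short read sees such choices one at a time, whereas a read along the whole cDNA shows which of them occur together.

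The sequences that carry the clearest of the findings come first. Each is spliced transcript sequence on GRCm38 (mm10), 5′ to 3′, taken from the GENCODE M21 transcripts, with 24 bases on each side of the capitals. In the antizyme genes Oaz1 and Oaz2 the capitals mark 4 bases that the annotation writes as an intron and that the member keeps. Both lie on the plus strand, in the stretches chr10:80828268-80828319 and chr9:65686245-65686296.
Oaz1: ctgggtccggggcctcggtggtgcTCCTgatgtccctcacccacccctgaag
Oaz2: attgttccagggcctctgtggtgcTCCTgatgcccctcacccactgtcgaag

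In the next set the capitals mark an annotated coding exon that the member lacks. Phb2 (chr6:124716007-124716629), Mpc1 (chr17:8283938-8296558) and Sept7 (chr9:25252676-25265417) lie on the plus strand and Map4k5 (chr12:69818475-69822826) on the minus strand, and these spans hold introns that were left out of the letters.
Phb2: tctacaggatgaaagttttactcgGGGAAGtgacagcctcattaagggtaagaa
Mpc1: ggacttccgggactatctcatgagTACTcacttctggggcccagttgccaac
Sept7: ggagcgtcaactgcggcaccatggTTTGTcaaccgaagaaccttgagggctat
Map4k5: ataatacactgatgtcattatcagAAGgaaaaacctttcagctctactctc

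In the third set the capitals mark the 3 bases between a pair of annotated acceptors. The Ctbp1 member keeps them, and the members of H2afy, Pitrm1, Aes and Hgs lack them. Ctbp1 (chr5:33248660-33249130) and H2afy (chr13:56096208-56104325) lie on the minus strand, and Pitrm1 (chr13:6548206-6549606), Aes (chr10:81565343-81565498) and Hgs (chr11:120478731-120479113) on the plus strand, again with the intron left out.
Ctbp1: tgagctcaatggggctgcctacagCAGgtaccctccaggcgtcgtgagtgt
H2afy: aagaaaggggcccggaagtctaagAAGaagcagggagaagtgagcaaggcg
Pitrm1: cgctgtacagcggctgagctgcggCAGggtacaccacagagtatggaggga
Aes: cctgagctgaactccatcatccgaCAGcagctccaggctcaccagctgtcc
Hgs: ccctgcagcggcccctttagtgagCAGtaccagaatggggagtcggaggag

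The label of the class was checked against the annotation. None of the 693 chains was identical to an annotated chain. In 591 every intron was annotated, so that only the combination was unlisted, 99 had 1 unannotated intron and 3 had 2 or more. However, 33 members held at least 1 splice site that GENCODE M21 does not list, among them 4 of Cdkn1c, 3 of Hnrnpk and 1 each of Pitpnb, Eif4a2 and Cyp21a2-ps, which goes against their class. Without them 660 members remained.

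The members held 15647 reads in replicate 1 and 12076 in replicate 2, which is 1.47% (exact Clopper-Pearson 95% interval 1.45 to 1.49) and 1.28% (1.25 to 1.30) of gene reads. They were 32.3% and 32.1% of all NIC reads. A single read was all that 14842 of the 20617 NIC chains of replicate 1 and 12002 of the 16450 of replicate 2 rested on. The median member had 20 summed reads, 11 exons and a length of 2471 nt, and 37 members had 100 or more summed reads. Among the 552 genes, 459 had 1 member. Cyp21a1 had 13, Cdkn1c had 6, and Cyp11a1 and Rbm39 had 5 each. The members' genes had a median of 8 annotated multi-exon transcripts and 106 and 80.5 reads in replicates 1 and 2, against 5 transcripts and 53 and 41 reads in the 7354 genes with a Known chain at the same minimum.

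At the read minimum, 144 members had 5 reads in their lower library. Just inside stood members of Eif4e2, Sar1a and Zswim7 with 5 reads in each library. Just outside stood chains of Cyp21a2-ps (34 and 4 reads) and Cyp11a1 (25 and 4), and 252 chains in all had 4 reads in the lower library.

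Most members were a minor part of their gene's output, and a small set was nearly all of it. The share of a gene's reads was taken in the 654 members whose gene reached 20 reads in both libraries. Its median was 10% in replicate 1 and 10.7% in replicate 2, or 10.4% for the mean of the 2 libraries, with the middle 50% of members between 4.80% and 20.9%. The share exceeded 10% in both libraries in 298 members, 50% in 20 and 80% in 8. The shares of the 2 libraries differed by a median of 2.18 percentage points. In 127 members, each in a different gene, the member was the multi-exon chain with the most reads of its gene in both libraries.

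**Figure D1:**
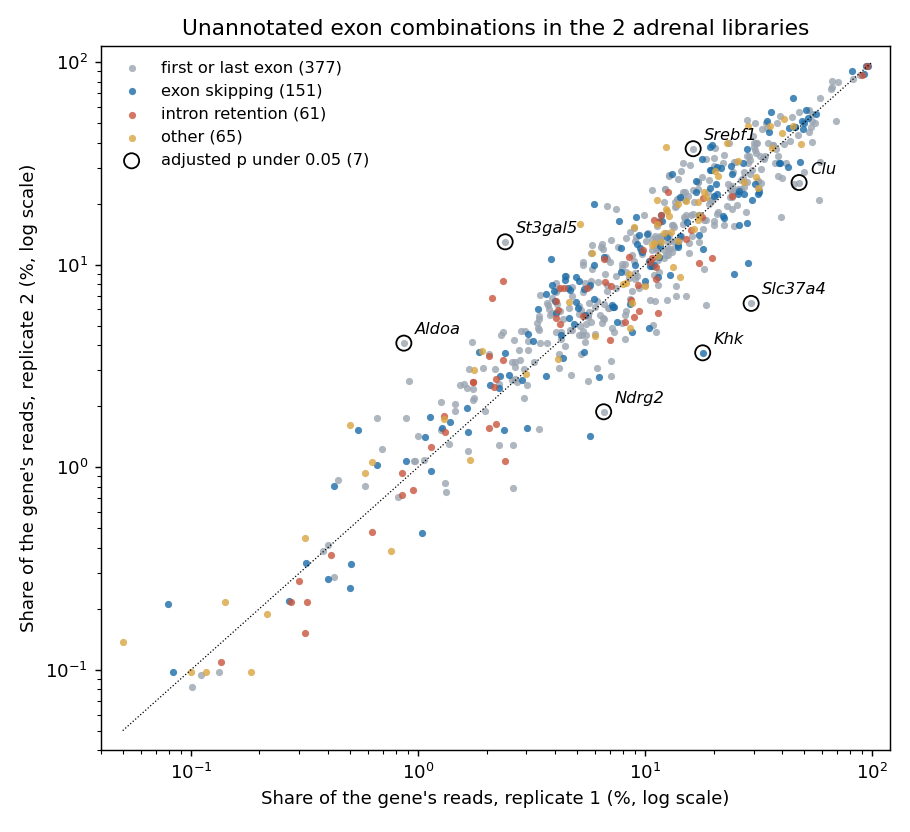
Share of the gene's reads in replicate 1 (x axis, percent, log scale) and replicate 2 (y axis, percent, log scale) for the 654 members whose gene reached 20 reads in both libraries. Each point is 1 member, coloured by class, the dotted line marks equal shares, and the 7 circled members differed between the libraries at an adjusted p under 0.05.

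The 8 members above 80% shared a feature that the rule did not use. Each lacked an annotated exon or intron of 12 nt or less in the annotated transcript with which it shared most introns. Mpc1, a subunit of the mitochondrial pyruvate carrier, had 252 reads in replicate 1 and 257 in replicate 2, 95.7% ± 0.312 of the gene's reads (SD, n = 2), and lacked the 4-nt exon printed above. Phb2, a prohibitin of the inner mitochondrial membrane, had 377 and 300 reads, 94.7% ± 1.63, and lacked a 6-nt exon. For Sept7, a septin of the cytoskeleton, the reads were 143 and 115 (89.7% ± 3.63) and the missing exon had 5 nt. Map4k5, a kinase, had 26 and 19 reads (85.9% ± 6.52) and lacked a 3-nt exon. The Uchl3 and Gbe1 members, of a ubiquitin hydrolase and the glycogen branching enzyme, stood at 87.5% ± 1.39 and 82.3% ± 0.354 and lacked exons of 12 nt and 1 nt. All 8 shares, those of the antizymes included, were high in both libraries.

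Oaz1 and Oaz2 completed the 8. They encode antizymes, inhibitors of polyamine synthesis whose translation is known to need a programmed frameshift at a stop codon, so that the ribosome reads on in another frame. The Oaz1 member had 1806 reads in replicate 1 and 1243 in replicate 2, 95.2% ± 0.278 of the gene's reads, and was the member with the most reads. The Oaz2 member had 348 and 224 reads, 88.2% ± 2.83. The annotation joins the frames by writing 4 bases as an intron (chr10:80828292-80828295 and chr9:65686269-65686272). No chain with reads in either library had this intron: 1887 and 1301 Oaz1 reads and 377 and 246 Oaz2 reads ran through them. In the member as read, a stop codon followed after 68 codons of Oaz1 and 32 codons of Oaz2, and it began at the last of the 4 capitals, with the letters tga. A further Oaz1 member of 18 and 10 reads ran through an annotated intron of 1 nt at the same site.

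In all, 21 members in 17 genes lacked an annotated exon or intron of 15 nt or less. They held 21.7% of the members' reads in replicate 1 and 20.9% in replicate 2. Among those in genes with at least 20 reads, the median share was 46.7% (19 members), against 10.3% for the other 635 members. The limit of 15 nt was chosen after the values were seen.

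Annotated exons of this size were hardly seen at all. In genes that reached 20 reads in both libraries, 33 annotated internal exons had 6 nt or less and 0 of them had a read that included them in either library. Of those of 7 to 15 nt, 3 of 112 had such a read, and of those of 16 to 30 nt, 357 of 565 (63.2%). The percentage was 88.7% at 31 to 60 nt and 93.7% at 61 to 120 nt. For the 6-nt exon of Phb2, 395 of 395 reads in replicate 1 and 308 of 308 in replicate 2 skipped it (exact lower bounds 99.1% and 98.8%). These counts are of aligned chains, and the bases of single reads were not used here, so whether the RNA held such an exon was not tested.

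**Figure D2:**
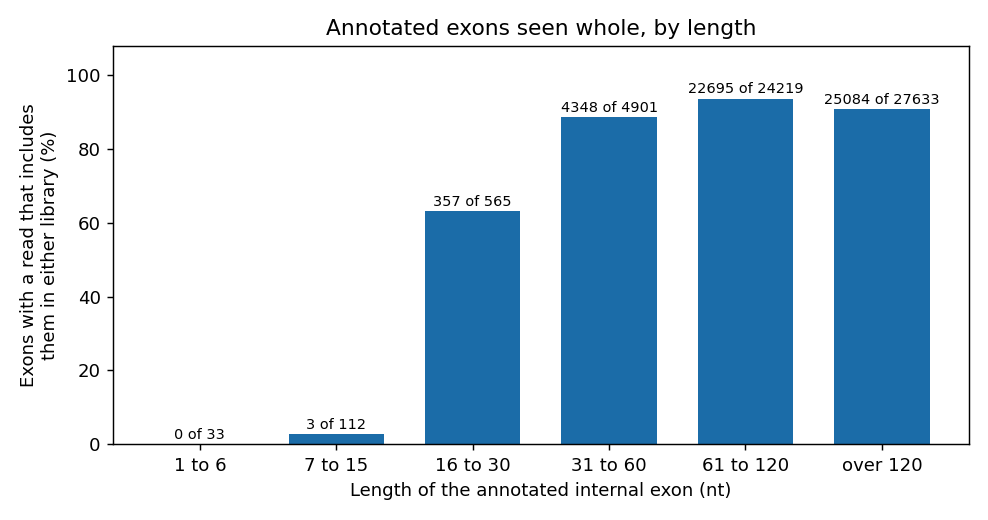
Percentage of annotated internal exons (y axis) with at least 1 read that includes them in either library, by exon length in nt (x axis), in genes that reached 20 reads in both libraries. Bars give the percentage and the labels the counts, from 0 of 33 exons at 1 to 6 nt to 22695 of 24219 at 61 to 120 nt.

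Each member was then compared with every annotated transcript of its gene and classed by the one with the fewest differences. This gave 162 members with exon skipping, 61 with intron retention, 404 with a new first or last exon pairing, and 66 others. The choice of the nearest transcript mattered: by the annotated transcript sharing most introns the counts were 163, 74, 193 and 263. The class was the same both ways in 475 members, which included 161 of the 162 skipping and all 61 retention members, 192 of the 404 first or last exon members and 61 of the 66 others. Where several transcripts were equally near, skipping was preferred, and with the order of preference reversed skipping held 26 members, retention 14, first or last exon 209 and other 444, so all 4 counts depend on that order.

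**Figure D3:**
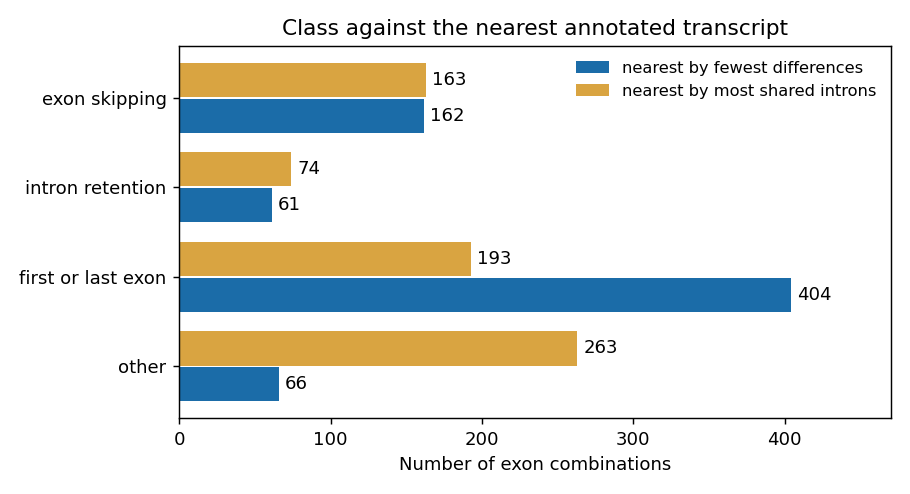
Number of exon combinations (x axis) in each class (y axis) against the annotated transcript with the fewest differences or the one sharing most introns. Skipping and retention were about equal both ways (162 and 163, 61 and 74), while first or last exon fell from 404 to 193 and other rose from 66 to 263.

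Exon skipping members made up 3373 reads in replicate 1 and 2743 in replicate 2. They covered 158 distinct stretches in 150 genes: 148 members skipped 1 exon, 12 skipped 2 and 2 skipped 3. The skipped stretch lay in the coding sequence in 106 members, in the 5' UTR in 29, across the border of the coding sequence in 17, in a transcript without coding sequence in 7 and in the 3' UTR in 3. In 111 the junction over the exon was annotated in another transcript, and in 51 it was not. The skipped stretch had a median of 103 nt, and 16 of 162 (9.88%) had 30 nt or less, against 135 of the 7481 annotated internal exons of the same genes (1.80%).

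A length divisible by 3 keeps the reading frame when an exon is left out. Of the skipped stretches 86 of 162 (53.1%) had such a length, and of those in the coding sequence 70 of 106 (66.0%). The annotated internal exons of the same genes gave 38.8% (2903 of 7481), and their coding exons 39.9% (2411 of 6044). Stretches in a UTR gave 34.4% (11 of 32). From the annotated start codon, 126 of 162 members read to an annotated stop codon and 29 to another one. An annotated stop is that of any coding transcript of the gene, so reaching it does not by itself show a kept frame. These are counts over members, set beside single annotated exons, and have no test. A stretch of several skipped exons was taken at its summed length, and a stretch skipped by several members was counted for each.

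Reads over each exon showed how common the skipping was. All chains of the gene were counted, whatever their class, as skipping or including the exon. Skipping had a median of 47.7% in replicate 1 and 44.6% in replicate 2. More reads skipped than included the exon so counted in both libraries in 74 members, fewer did in 78, and in 20 no read of either library included it. Among the 20 were exons of 15 nt or less, such as those of Phb2, Mpc1, Sept7 and Map4k5. In any gene with enough reads, 0 of 33 exons of 6 nt or less and 3 of 112 of 7 to 15 nt had an including read. For exons this short the counts do not show how common skipping was in the RNA.

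Cd47, the surface protein that signals to macrophages not to engulf a cell, was the skipping member with the most reads whose exon had an ordinary length. It had 169 reads in replicate 1 and 95 in replicate 2, 56.0% ± 0.683 of the gene's reads. The member lacked a 63-nt coding exon, printed here in capitals because it is a whole number of codons, from the plus strand of chr16:49868089-49884188.
Cd47: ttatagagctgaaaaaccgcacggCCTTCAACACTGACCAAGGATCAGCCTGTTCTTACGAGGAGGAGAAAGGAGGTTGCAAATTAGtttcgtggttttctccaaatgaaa

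The Cd47 member read to the annotated stop with 303 codons in place of 324. Over all Cd47 chains, 235 reads skipped the exon and 61 included it in replicate 1 (79.4% skipping, interval 74.3 to 83.9), and 126 and 41 did in replicate 2 (75.4%, 68.2 to 81.8). A second member of 27 and 17 reads skipped the same exon. Both libraries thus had the exon left out in most reads.

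Other skipping members are named by reads or by gene list. Xpnpep1, an aminopeptidase, had 95 and 66 reads and lacked an 89-nt coding exon, which 52.4% and 54.3% of the gene's reads over it skipped, and the annotated start then met a stop after 59 codons. Nadk2, which makes NADP in mitochondria, had 54 and 67 reads, and its 66-nt exon, from an annotated transcript without coding sequence, was skipped in 62.2% and 59.2%. Against the transcript sharing most introns, however, the Nadk2 member lacked an annotated intron of 1 nt. Hnrnpa2b1, a splicing regulator, had 36 and 34 reads and lacked a 136-nt exon of the 3' UTR, skipped by 73.8% and 77.6%. In Gnas, an imprinted gene for a G protein subunit, 45 and 43 member reads skipped a stretch of 2327 nt. Over all Gnas chains 76 reads skipped it and 3 included it in replicate 1 (96.2%), and 79 and 2 did in replicate 2 (97.5%). A further annotated Gnas intron, which begins where the stretch ends, had 2055 and 1792 reads, and nearly all of these were counted as neither. Tpm3, a tropomyosin that lies along actin filaments, had 14 and 17 member reads, and 94.5% and 90.7% of reads skipped its 79-nt exon. Chga, the granin of chromaffin granules, had 14 and 5 reads, 0.322% and 0.335% of its reads, and 0.412% and 0.397% of reads skipped the 47-nt exon. In each of these genes but Chga the exon was skipped in more than 50% of the reads counted as skipping or including it, in both libraries. For Gnas these were a small part of the gene's reads.

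Further skipping members, chosen after their values were seen, fell on both sides of that level. Ece1, the endothelin-converting enzyme, had 49 and 65 reads without an 86-nt exon of the 5' UTR, and its 753 codons were unchanged. Mff, which recruits the fission machinery to mitochondria, had 3 skipping members, and the largest (45 and 29 reads) left out 2 coding exons of 219 nt together, with 218 codons in place of 291. Over all Mff chains 65 reads in replicate 1 and 45 in replicate 2 skipped both exons. The earlier exon was included in 44 reads of each library and the later one in 72 and 69. Mbnl2, a splicing regulator itself, had 31 and 40 reads without a 95-nt coding exon, skipped by 50% (37.6 to 62.4) and 67.1% (55.8 to 77.1) of reads. G3bp1, a stress granule protein, had 44 and 13 reads without an 82-nt coding exon, 7.01% and 3.33% of reads over it, and its annotated start met a stop after 37 codons. The 5' UTR exon of Ece1 was thus left out in most reads and the frame-breaking exon of G3bp1 in few.

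Intron retention members held 3300 and 2119 reads, of which the Oaz1 and Oaz2 members made up the larger part. Their 63 retained introns were 58 distinct ones in 51 genes, and 57 of the 63 lay between coding exons. The median retained intron had 280 nt, against 1250 nt for the 10122 annotated introns of the members' genes, and 47 of 63 were under 1000 nt. Median retention over all chains was 13.8% and 12.7% of reads. The members' median share of gene reads was 5.93%, the lowest of the 4 classes. The read minimum lets a lower share pass in genes with more reads, such as Cyp11a1 and Cyp21a1, so nothing is read from this order of the classes. A stop codon more than 50 nt before the last junction, the position known to mark an mRNA for nonsense-mediated decay, followed from the annotated start in 44 of the 47 members whose frame could be read, Oaz1 and Oaz2 included. The same count was 32 of 155 for skipping, 65 of 392 for first or last exon and 9 of 56 for the others.

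Cyp11a1, which cuts the side chain of cholesterol in the first step of steroid synthesis, led the retention members after the antizymes. Its member with a 478-nt intron had 142 reads in replicate 1 and 41 in replicate 2, 0.625% and 0.480% of the gene's reads. Over all chains 407 reads kept the intron and 11322 spliced it in replicate 1 (3.47% kept, interval 3.15 to 3.82), and 118 and 4670 did in replicate 2 (2.46%, 2.04 to 2.94), so the intervals did not overlap. A second member of 72 and 13 reads kept this intron and one of 283 nt, whose retention of 2.07% (1.82 to 2.35) and 1.19% (0.903 to 1.54) did not overlap either. Cyp21a1, the steroid 21-hydroxylase, had a retention member of 102 and 37 reads, 0.850% and 0.724%. Reads of Cyp21a1 and its near-identical copy Cyp21a2-ps could have been split by the authors' counting, so its 13 members are uncertain. Each of these members was under 1% of its gene's reads in both libraries.

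Retention was larger in some genes of fewer reads. Srsf5, a splicing factor of the SR family, had 3 members with the same 1229-nt intron, the largest with 30 reads in each library, and retention of 28.9% (61 reads kept and 150 spliced, interval 22.9 to 35.5) and 61.3% (68 and 43, 51.5 to 70.4). The Srsf5 intervals did not overlap. The share test called no Srsf5 member. Rab24, a small GTPase, had 31 and 18 member reads, and 36.5% and 27.7% of its reads kept a 191-nt intron, with overlapping intervals. In Cd1d1, which presents lipids to T cells, a 1130-nt intron was kept in 31 reads and spliced in 1 in replicate 1, and in 15 and 1 in replicate 2, so here retention was the usual form. Rab24 and Cd1d1 were chosen after their values were seen.

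New first or last exon pairings held 7881 and 6397 reads and were the largest class by fewest differences with ties in the order used. The other class was larger by most shared introns, with ties reversed (444 against 209) and with annotated transcripts that had reads (257 against 232). In 101 members a single terminal exon was exchanged for another, 88 times the first and 13 times the last, and in 98 of these every intron was annotated. In the other 303 the end differed by more than 1 intron of the member or the nearest transcript had no intron at that end. Against the transcript sharing most introns, 133 of the 303 differed by another donor or acceptor, 48 by the first exon, 42 by the last exon and 26 by an added exon.

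The 101 exchanges come closest to a choice of promoter or of last exon. All chains with the member's terminal intron were counted against those with the intron of the nearest annotated transcript, here called the annotated one. Chains with neither intron were left out. The member's intron had a median of 61.5% of reads in replicate 1 and 63.2% in replicate 2. It had more reads in both libraries in 54 members and fewer in both in 38. In 24 the annotated intron had 0 reads in both libraries, and 22 of these were first exons. These counts and medians depend on which transcript was paired with the member, and an intron that members share was counted for each. The same Gnas first intron had 91.6% and 98.8% of reads against Gnas-203, and 3.57% and 4.22% against Gnas-206. The percentages therefore do not give the part of a gene's reads with that end. Among these 24, Csnk1g2, a casein kinase, had the most member reads: its member had 138 and 107 reads, 66.3% and 74.8% of the gene's reads. Of the Csnk1g2 reads with either first intron, 176 of 176 and 130 of 130 had the member's, while the gene held 208 and 143 reads. In Slc29a1, a nucleoside transporter, the member's first intron had 156 reads and the annotated one 0 in replicate 1, and 133 and 1 in replicate 2. Cyhr1, with 139 and 87 member reads, had 281 and 174 reads with its first intron and 0 with the annotated one. For the last exon, Mgrn1, a ubiquitin ligase, had 33 and 23 member reads, and its last intron had 57.0% and 55.8% of reads, so both ends were in like use in both libraries. Enpp2, the enzyme autotaxin, had 14 and 39 member reads and 60.5% (43.4 to 76.0) and 75.3% (64.2 to 84.4) of reads with the member's first intron. Cyhr1, Mgrn1 and Enpp2 too were chosen after their values were seen. A stop annotated in some transcript of the gene was reached by 81 of the 88 members with an exchanged first exon, and 3 of the 88 had an early stop.

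Cdkn1c, an imprinted inhibitor of the cell cycle, had its leading member among these 303, with 329 reads in replicate 1 and 180 in replicate 2 and 25.7% ± 2.28 of the gene's reads. Ctbp1, a transcriptional corepressor, had 322 and 219 reads, 62.7% ± 5.44, and differed from the transcript sharing most introns by the acceptor printed above. Cops7a, a subunit of the COP9 signalosome, had 166 and 103 reads (54.6% ± 0.713) and differed by a donor that shortened an exon by 117 nt, with the coding part unchanged at 275 codons. Crat, carnitine acetyltransferase, had 114 and 147 reads (37.2% ± 3.44) and 605 codons. Ptov1 had 142 and 99 reads (33.1% ± 3.40), and its annotated start met a stop after 12 codons. Hnrnpk, an RNA-binding splicing regulator, had 3 members in this class, with 100 and 63, 55 and 48, and 12 and 11 reads, and these hold an unannotated site. The share test called none of the members of these 6 genes.

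Against the transcript sharing most introns, 177 members differed by another donor or acceptor alone. Of the 101 with another acceptor, 49 shifted it by exactly 3 nt, while 1 of the 70 with another donor did. The 3 bases between the acceptors ended in AG in 48 of the 48 pairs whose bases were known, the letters that a downstream acceptor of the usual kind needs in any case. The shift adds or removes 1 codon or swaps codons around the junction. In 46 of the 49 members every splice site is annotated. Over the 46 distinct sites, the member's acceptor had between 0.456% and 91.6% of the reads in replicate 1 (median 37.9%) and between 0.457% and 91.1% in replicate 2 (median 40.6%), with a median difference of 2.86 points between the libraries.

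**Figure D4:**
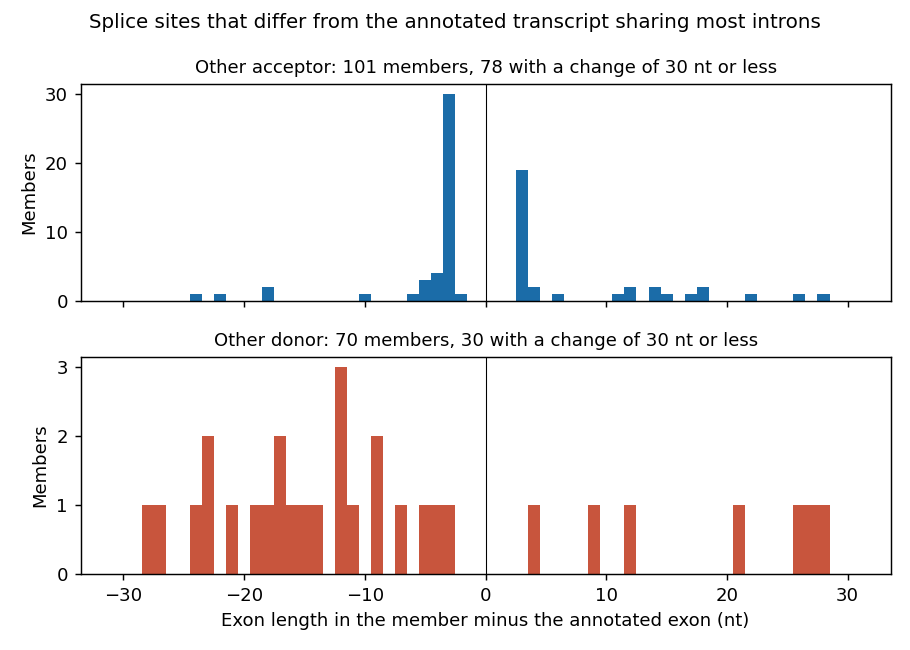
Number of members (y axis) by the length of the exon in the member minus that of the annotated transcript sharing most introns (x axis, nt), for acceptors (top) and donors (bottom), with changes of 30 nt or less drawn. Acceptors peak at 3 nt shorter and 3 nt longer, 49 of 101 members together, and donors have no such peak (1 of 70).

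In Ctbp1 the acceptor that keeps CAG had 456 reads against 69 in replicate 1 (86.9%, interval 83.7 to 89.6) and 278 against 43 in replicate 2 (86.6%, 82.4 to 90.1). For H2afy, which encodes the histone variant macroH2A, the acceptor without AAG had 63.9% and 64.0%. Pitrm1, a mitochondrial peptidase, had 64 reads without CAG and 64 with it in replicate 1, and 49 and 35 in replicate 2, and Hgs, which sorts receptors on endosomes, had 66.7% and 59.7% without CAG. Aes, a Groucho-type corepressor, had 7.92% and 5.49%. H2afy, Aes and Slc29a1 were chosen after their values were seen. Within each of these 5 genes the intervals of the 2 libraries overlapped.

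Members of the remaining class changed a site or added a piece. Cnbp, a nucleic acid binding protein, had 111 and 66 reads, 11.2% ± 0.212 of the gene's reads, and another donor or acceptor that left 171 codons in place of 178. Pitpnb, a phosphatidylinositol transfer protein, had 66 and 47 reads and no read on any Known multi-exon chain, and it lacks an 8-nt exon and holds an unannotated site. Chtop had 37 and 19 reads and 1 codon less than annotated. Eif4a2, a translation helicase, had 6 and 9 reads with an intron inside an annotated exon. For Cyp21a2-ps, with 66 and 31 reads, the caution on its copy applies.

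The share of gene reads was compared between the libraries by Fisher's exact test, two-sided, with Benjamini-Hochberg adjustment over all 10366 multi-exon chains tested. Of the 654 members tested 7 were called at an adjusted p under 0.05, which is 1.07%, and over all chains tested 1.08% were called (112). The members' minimum of 5 reads in each library used the counts that this test compares, whereas other chains needed only 10 summed reads. In a comparison added after the values were seen, of the other chains that also had 5 reads in each library 72 of 8289 (0.869%) were called. At an unadjusted p under 0.05 there were 43 members. Of the 7, 6 were first or last exon members, all with a changed first exon, and 1 was an exon skipping member. The 7 shares rest on 2 libraries of which replicate 2 held the hepatocyte and muscle transcripts given above, and the part of those transcripts in the differences was not tested.

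Aldoa, the glycolytic aldolase of muscle and most tissues, had a member with another first exon, with 23 of 2659 gene reads in replicate 1 and 78 of 1906 in replicate 2. Its share was 0.865% (interval 0.549 to 1.30) and 4.09% (3.25 to 5.08), with an adjusted p of 2.8e-10 by Fisher's exact test. Srebf1 encodes SREBP-1, which switches on lipid synthesis and is known for alternative first exons. Its member had 20 of 123 reads (16.3%) and 72 of 193 (37.3%), adjusted p = 0.0077, or 0.065 by the same test with no filter on chain reads. The Srebf1 member's first intron of 3078 nt was shorter than the annotated 13195 nt, and it had 31.2% (22.0 to 41.6) and 60.5% (52.3 to 68.4) of reads with either. St3gal5, the sialyltransferase that makes ganglioside GM3, had 8 of 331 reads (2.42%) and 29 of 224 (12.9%), adjusted p = 0.00051. These 3 were higher in replicate 2.

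Clu, which encodes the secreted chaperone clusterin, went the other way. Its member had 109 of 229 reads in replicate 1 (47.6%, 41.0 to 54.3) and 64 of 252 in replicate 2 (25.4%, 20.1 to 31.2), adjusted p = 0.00012. Ndrg2 had 29 of 442 reads (6.56%) and 12 of 640 (1.88%), adjusted p = 0.017 (0.14 with no filter on chain reads), but a second Ndrg2 member with the same first intron had 13 and 30 reads and was not called, and over all chains that intron had 11.8% (8.68 to 15.5) and 8.37% (6.14 to 11.1) of reads. Slc37a4, the glucose-6-phosphate transporter, had 12 of 41 and 9 of 140 reads, adjusted p = 0.028 (0.23 with no filter). These calls, with that of Khk, were lower in replicate 2.

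**Figure D5:**
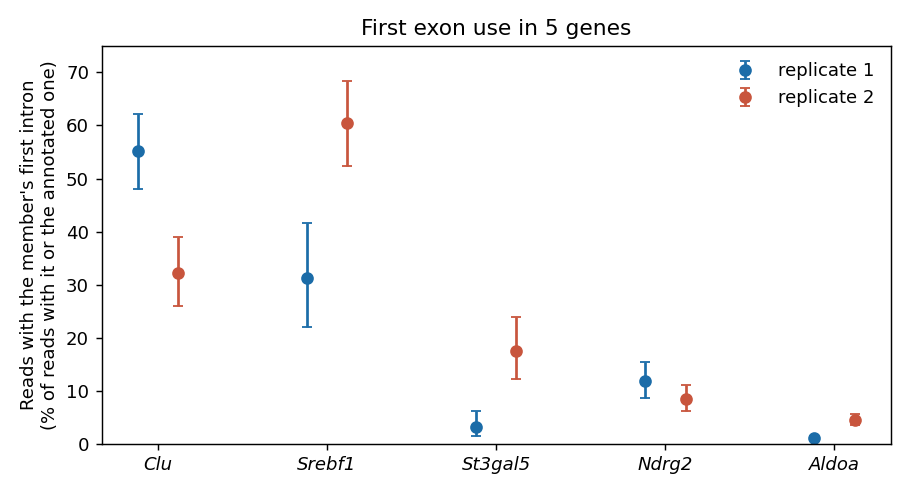
Reads with the member's first intron as a percentage of reads with it or the annotated one (y axis) in 5 genes (x axis), with exact 95% intervals for counting error, for replicate 1 and replicate 2. The intervals of Clu, Srebf1, St3gal5 and Aldoa do not overlap between the libraries, and those of Ndrg2 do.

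Khk, the last of the 7, is named beyond the rule for named genes, after its values were seen. It encodes ketohexokinase, which phosphorylates fructose and is known for a pair of mutually exclusive exons, of which liver uses one and most tissues the other. The annotated transcript Khk-201 holds both exons, each of 135 nt, and the member skips the later one and reads 298 codons in place of 343. Both are coding and on the plus strand, the earlier at chr5:30926688-30926822 and the later at chr5:30927022-30927156, and they share 73 of 135 bases (54.1%).
Khk, earlier exon: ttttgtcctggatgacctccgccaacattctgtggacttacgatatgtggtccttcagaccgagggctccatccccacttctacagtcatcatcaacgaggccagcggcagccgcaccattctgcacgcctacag
Khk, later exon: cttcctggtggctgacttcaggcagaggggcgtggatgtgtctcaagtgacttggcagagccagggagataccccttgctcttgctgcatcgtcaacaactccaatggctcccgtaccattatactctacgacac

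The Khk member had 12 of 67 gene reads in replicate 1 (17.9%, 9.61 to 29.2) and 7 of 191 in replicate 2 (3.66%, 1.49 to 7.41), adjusted p = 0.040, or 0.33 with no filter on chain reads. Over all chains the earlier exon was included in 13 reads of each library. The later exon was included in 2 reads of replicate 1 and 148 of replicate 2, and 0 and 5 reads held both exons. The member's reads thus stayed few in both libraries while reads with the later exon were many in replicate 2 alone.

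CPM was compared with a two-sided exact binomial test conditional on the summed reads, adjusted over 13503 chains. Here 44 of 693 members were called (6.35%), beside 17.5% of all chains tested. The read minimum left out chains near 0 in 1 library, so nothing is read from that gap, and of the other chains with 5 reads in each library 1554 of 10281 (15.1%) were called. Of the 44, 14 were higher and 30 lower in replicate 2 (7.89% and 9.6% of all chains tested). With the TMM scaling of edgeR or the size factors of DESeq2, 30 members were called, 20 higher and 10 lower. Of all 13503 chains, 1939 were called with TMM and 1938 with DESeq2 size factors, and their split by direction was not taken. The direction among called members thus depends on the scaling. The median log2 ratio of replicate 2 over replicate 1 was -0.07 for members and -0.23 for all chains by total gene reads, and 0.18 and 0.02 with TMM.

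By gene list, steroid and cholesterol genes had the most members, 23 in 6 of 29 genes (Cyp11a1, Cyp11b1, Cyp21a1, Dhcr7, Fdxr and Hmgcs1). They held 841 reads in replicate 1 and 286 in replicate 2. All 23 were tested for share and 0 were called, beside 1.08% of all chains tested. A lower CPM in replicate 2 was called in 11 by total gene reads, beside the 9.6% of all chains called lower by that scaling. It was called in 7 with TMM or DESeq2 size factors, for which the share of all chains called lower was not taken. A higher CPM was called in 0 by each of these scalings. Of the 23, 20 lie in genes that are themselves cortex markers. Splicing factors had 19 members in 9 of 26 genes with 356 and 289 reads, and imprinted genes 9 members in Cdkn1c and Gnas with 494 and 316. The mitochondrial respiration list had 7 members in 5 of 25 genes, led by 2 of Ndufs1 (63 and 76 reads, 49 and 59 reads), with Ndufv1 at 10 and 7. Chromaffin genes had 2 members, Chga and Cyb561 (31 and 13 reads), ribosome and translation genes 2, Eif4a2 and Rpl3 (5 and 6 reads), and cytoskeleton genes 4, among them Aplp2 (21 and 25) and 2 of Tpm3. None of the 66 members in these lists was called for share.

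Both ends of the model lay within 50 nt of an annotated start and an annotated end of the gene, in both libraries, in 603 of 693 members. In 597 of them both distances were exactly 0 in both libraries, and the count was the same at 20 and 100 nt. A model has 1 start and 1 end for all of its reads, so these positions do not show where the single reads began or stopped.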

How the data were processed

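The deposited files hold, for each of 2 long-read libraries, whole read counts per transcript model and the models' exons. Per the file headers the authors' models carry TALON classes on mm10 with GENCODE M21; the deposited counts are unscaled and libraries were not pooled. The aligner, TALON's version and any read filters were not given in the sources used here. Models were matched by chromosome, strand and intron chain. Members, gene lists and tests were chosen with earlier results of these data known. Named members were the 12 with most reads, 6 per class, the 8 of highest share, the 6 lowest adjusted p in the share test, up to 3 per gene list, and 3 on either side of the read minimum. Chains with at least 10 summed reads were tested in genes with at least 20 reads per library (share) or in any annotated gene (CPM), at an adjusted p of 0.05, with scipy 1.17.1. With 1 group of 2 libraries no model with biological error could be fitted. Log2 ratios have 0.5 reads added, and intervals are exact 95% intervals for counting error only, since reads carry no molecular identifiers. edgeR 4.0.16 and DESeq2 1.42.0 gave alternative scalings. Both tests were checked on counts simulated with counting error alone, and the classes on hand-made chains. The labels call the libraries biological replicates from separate tissue records. Results of some named items are not reported here.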

Additional observations from a re-analysis of the deposited data

Results flagged for a closer look

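NIC chains seen in 1 library alone were outside the comparisons. With at least 5 reads in replicate 1 and 0 in replicate 2 there were 83, led by a chain of Hsd3b1, a steroid dehydrogenase, with 13 reads of 8617 gene reads, against 0 of 3577. With at least 5 reads in replicate 2 and 0 in replicate 1 there were 116, led by a chain of Itih1, an inter-alpha-trypsin inhibitor made in liver, with 198 reads of 295 gene reads, where replicate 1 had 1 gene read. Both were picked as the largest of their kind, and their raw counts exceed 3 reads, the limit for a count of 0 before any scaling to the gene's reads. With 1 gene read in replicate 1, an Itih1 chain of that share could not be looked for there.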

How the results depend on the processing

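The number of members was 1409 with 3 reads in each library and 266 with 10. With 10 reads in each, the classes held 56 skipping, 25 retention, 159 first or last exon and 26 other members. With ties in reverse order they held 26, 14, 209 and 444. With annotated transcripts that had reads, first or last exon held 232 and other 257, and by most shared introns 193 and 263. The median share was 11.2% with no minimum on gene reads, and ranged from 10% to 10.7% with either replicate left out. With no filter on chain reads 62 chains and 3 members differed in share, and 1520 chains and 18 members in CPM. Without that filter the calls of Srebf1, Ndrg2, Slc37a4 and Khk were lost (adjusted p 0.065, 0.14, 0.23 and 0.33), as more tests were adjusted for. Divisible by 3 were 66.0% of coding exons alone. Leaving out the members with an unannotated site, or those that lack a feature of 15 nt or less, was chosen after seeing the data and changed no count by over 1.5 times. No paired analysis was possible because there is 1 group. The depth leaves a share from 8 reads with an interval of 1.05% to 4.71% (St3gal5, replicate 1).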
